A study of Mus musculus with 16 samples.

Results

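Of the 47517 rows in the count files, 4 were followed here because they bear on the enzymes that modify collagen: Nt5c3b, Gm38391, Lox and Loxl1. The Nt5c3b and Gm38391 rows were picked by the gene that lies on the opposite DNA strand, Fkbp10 and Plod2 respectively, and by their response to loading in these same libraries. Their loaded against non-loaded values are therefore given as descriptions, without a test. Lox and Loxl1 were chosen by name, for the cross-linking enzymes they encode.

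Collagen chains are hydroxylated on proline and lysine in the endoplasmic reticulum, folded into a triple helix with the help of chaperones, exported, trimmed and assembled into fibrils. Fkbp10 encodes FKBP65, a prolyl isomerase and collagen chaperone. Plod2 encodes lysyl hydroxylase 2, which hydroxylates lysines of the collagen telopeptides and so sets the kind of cross-link that bone collagen can form. Loss of either gene product underlies Bruck syndrome, a brittle bone disorder with joint contractures. Lox and Loxl1 encode secreted copper-dependent amine oxidases, which oxidise lysine and hydroxylysine side chains and thereby start the cross-links between neighbouring molecules.

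The libraries came from cortical bone of the tibiae of male mice, 8 in all and 16 weeks old, of which 4 carried the label Ctrl and 4 the label NT3-Cre+ (NT3 below). The series title describes activation of the kinase NIK in cells of the osteoblast lineage. The right tibia of every mouse was compressed on 9 days at 1200 cycles per day, to 8.7 N in Ctrl and 10.0 N in NT3, forces set to give the same peak strain of -2000 microstrain, and the left tibia was not loaded. Bone was collected 4 hours after loading ended, cleaned of muscle and spun to remove marrow, and the groups were thus Ctrl non-loaded, Ctrl loaded, NT3 non-loaded and NT3 loaded, with 4 libraries each and both limbs of each mouse paired. Which allele NT3 stands for, which promoter drove Cre and what the Ctrl mice carried is not given in the sources used here. Between 758394 and 1064391 fragments were counted in a library, and the labels give a mean RIN (RNA integrity number) of 5.4.

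The positions of the first pair of rows matter for reading their counts. On GRCm38, Nt5c3b, which encodes a cytosolic 5′-nucleotidase, spans chr11:100422321-100441808 on the minus strand, and Fkbp10 spans chr11:100415697-100424824 on the plus strand, so that the 3′ ends of these genes overlap. Exon 7 of the 10 exons of Fkbp10, 193 bases that are all coding, lies inside the last exon of Nt5c3b. Gm38391 is an unspliced transcript model of 4069 bases at chr9:92538801-92542869 on the minus strand, in the annotation class TEC, which has no coding sequence. Plod2 starts inside it, at chr9:92542223-92608428 on the plus strand, and exon 1 of its 19 exons, 346 bases, lies wholly in the Gm38391 exon. Upstream of the Plod2 start, 3422 bases are covered by Gm38391 alone of this pair. The rest of the Gm38391 exon lies in the first intron of Plod2. The shared exon bases are 5.6% of the Nt5c3b exons and 8.5% of the Gm38391 exon. The strand setting of the authors' counting was not given, and fragments that belong to a row cannot be separated in the files from those that the gene on the other strand gave. These sequences are shown because they are the bases that lie in exons of both genes of a pair, given as the GENCODE M21 transcripts have them, on the strand of the collagen gene. The first is the start of the Plod2 coding sequence, chr9:92542460-92542568, with the start codon in capitals, and the second is the first 30 bases of the Fkbp10 exon, chr11:100422626-100422655.
Plod2 coding start in the Gm38391 exon: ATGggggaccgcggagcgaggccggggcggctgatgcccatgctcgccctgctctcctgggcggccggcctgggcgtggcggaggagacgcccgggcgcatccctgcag
Fkbp10 exon in the last Nt5c3b exon: gagacaagatccctggctcggctgtgctca

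**Figure D1:**
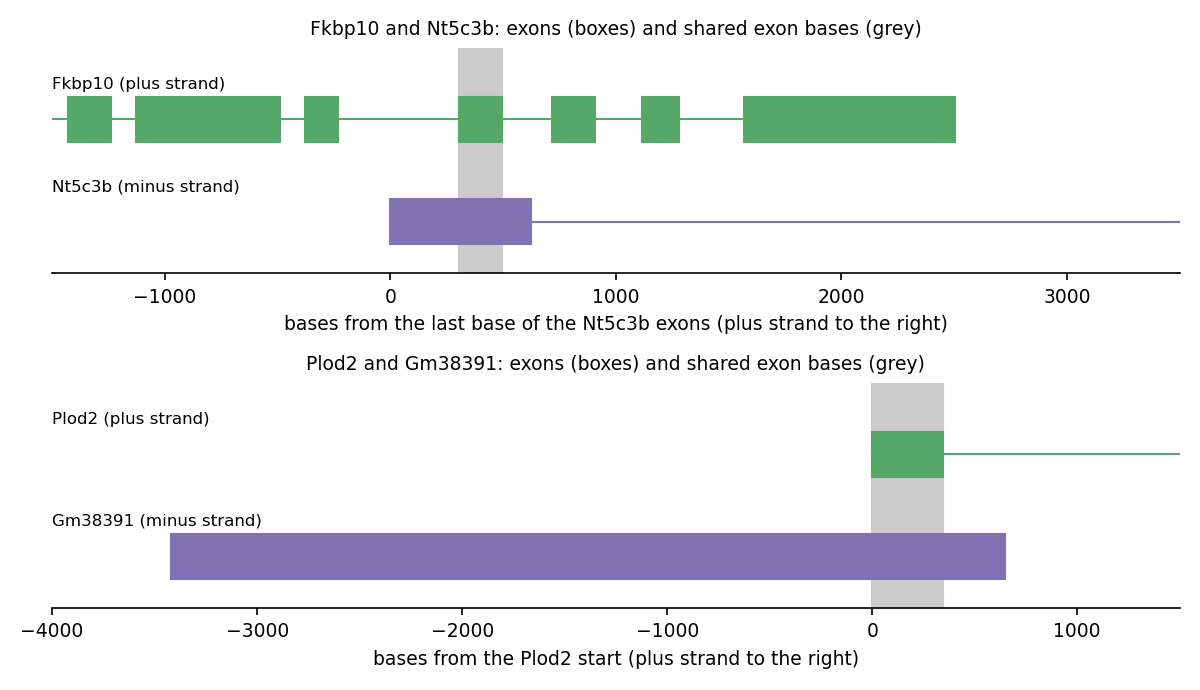
Exons (boxes) of each pair of genes on opposite strands, with the horizontal axis in bases from the last base of the Nt5c3b exons (upper map) or from the Plod2 start (lower map) and exon bases shared by both genes in grey. The shared stretch is 193 bases for Fkbp10 and Nt5c3b and 346 bases for Plod2 and Gm38391, and most of Gm38391 lies before the Plod2 start.

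Lox lies on chromosome 18 and Loxl1 at chr9:58287738-58313186, both on the minus strand, and no row of the files shares 20 or more exon bases with either on the other strand. Since the strand setting was not given, how far the Lox and Loxl1 rows count the mRNA of these genes is not known.

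The 4 rows stood at very different levels. Per kilobase of exon, non-loaded Ctrl bone held 78.9 ± 2.06 TMM-scaled counts per 1000000 fragments (CPM; SD, n = 4) of Nt5c3b and 78.8 ± 12.4 of Gm38391, against 5.02 ± 0.881 of Lox and 3.78 ± 0.487 of Loxl1. The rows that carry the names of the enzymes opposite were lower still, at 1.2 ± 1.5 CPM per kilobase for Fkbp10 and 1.69 ± 0.39 for Plod2. Nt5c3b and Gm38391 rested on 191 to 861 fragments in a library. Lox rested on 10 to 34 fragments, Loxl1 on 1 to 18, Plod2 on 2 to 19 and Fkbp10 on 0 to 11. The last of these never passed the filter on low counts and was not tested.

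Nt5c3b was higher in the loaded limb of every mouse. In Ctrl mice 1 to 4 it stood at 265, 271, 280 and 264 CPM in the non-loaded limb and at 908, 683, 829 and 939 CPM in the loaded limb. In NT3 mice 1 to 4 the non-loaded limbs held 348, 332, 262 and 240 CPM and the loaded limbs 579, 573, 401 and 386 CPM. The non-loaded Ctrl limbs lay close together, no loaded limb of a genotype overlapped its non-loaded limbs, and every loaded NT3 limb lay below every loaded Ctrl limb. The share of all rows that separate in these ways is not given, here or for the rows below. NT3 mice 1 and 2 lay above NT3 mice 3 and 4 in both limbs. The fitted loading difference was 1.63 on the log2 scale (SE 0.12, 3.09-fold) in Ctrl and 0.71 (SE 0.12, 1.63-fold) in NT3, and the change per mouse ranged from 1.33 to 1.83 in Ctrl and from 0.61 to 0.79 in NT3. The NT3 response minus the Ctrl response was -0.92 (SE 0.17). In bulk bone, fewer cells of a type and less RNA per cell cannot be told apart.

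Gm38391 was also higher in the loaded limb of all 8 mice, by less than Nt5c3b in 8 of 8. Ctrl mice 1 to 4 had 290, 266, 356 and 371 CPM in the non-loaded limb and 648, 559, 891 and 768 CPM in the loaded limb. NT3 mice 1 to 4 had 328, 464, 253 and 197 CPM in the non-loaded limb and 445, 505, 362 and 310 CPM in the loaded limb. The Ctrl limbs did not overlap, whereas the NT3 limbs did, with the non-loaded limb of NT3 mouse 2 above 3 of the loaded limbs. The fitted difference was 1.15 (SE 0.12, 2.22-fold) in Ctrl and 0.43 (SE 0.12, 1.34-fold) in NT3, and the NT3 response minus the Ctrl response was -0.72 (SE 0.17). With the marrow marker rows as a covariate that difference was -0.46 (SE 0.25).

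**Figure D2:**
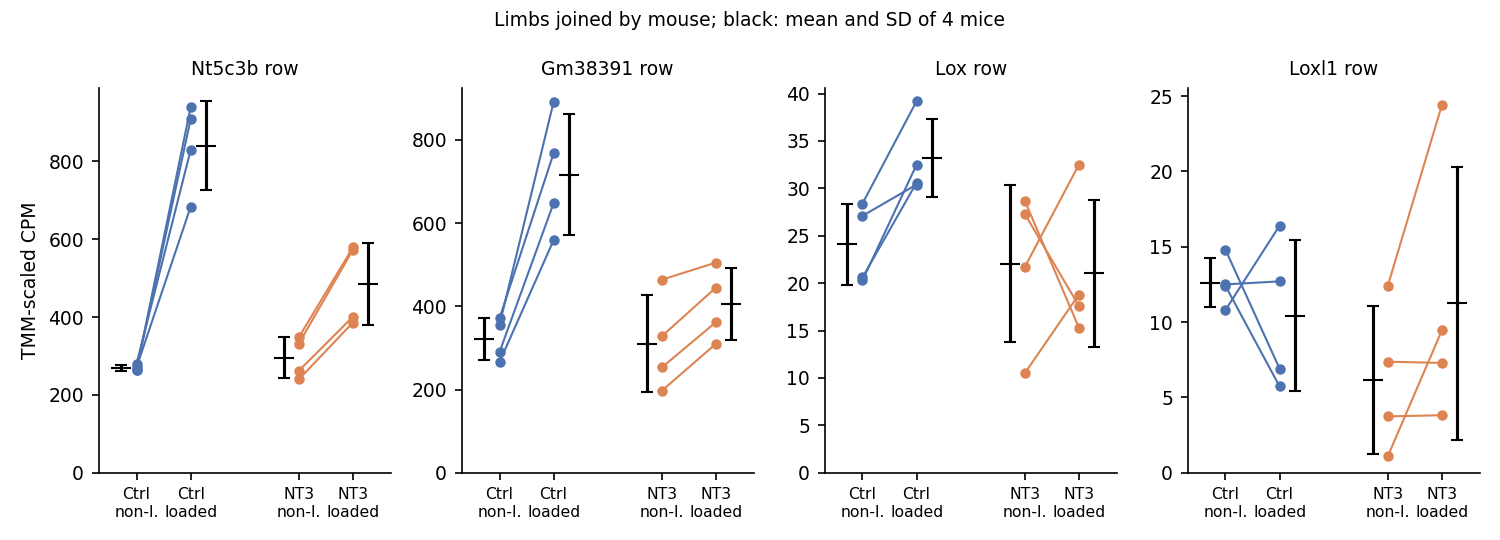
TMM-scaled CPM of each row (vertical axes, separate scales) in the non-loaded and loaded limbs of Ctrl (blue) and NT3 (orange) mice, with the limbs of a mouse joined and the mean and SD of 4 mice in black. All lines of Nt5c3b and Gm38391 point up and are steeper in Ctrl, while those of Lox in NT3 and of Loxl1 in both genotypes point both ways.

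The rows named for the enzymes themselves gave too few fragments for a firm comparison. Plod2 had 10.2, 7.90, 11.5 and 6.88 CPM in the non-loaded and 12.7, 17.2, 16.4 and 20.7 CPM in the loaded limbs of Ctrl mice 1 to 4, so these groups did not overlap. The fitted difference was 0.88 (SE 0.47). In NT3 mice 1 to 4 it had 4.21, 8.73, 3.74 and 5.16 CPM in the non-loaded and 3.13, 6.75, 2.54 and 16.3 CPM in the loaded limbs, lower in the loaded limb of 3 of 4 mice, and the fitted difference was 0.26 (SE 0.59). In loaded limbs Plod2 was -1.25 (SE 0.5) in NT3 against Ctrl. The row passed the filter on low counts through the loaded Ctrl limbs, so these differences are descriptions. Fkbp10 was found at 14 fragments over the 4 non-loaded and 27 over the 4 loaded Ctrl limbs (exact Poisson 95% intervals 7.65 to 23.5 and 17.8 to 39.3, counting error only), which overlap, and at 17 and 15 fragments in the NT3 limbs.

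No change of Lox with loading was detected by the test. Ctrl mice 1 to 4 had 28.4, 20.3, 27.1 and 20.6 CPM in the non-loaded limb and 39.2, 32.5, 30.4 and 30.6 CPM in the loaded limb. The loaded limb was higher in 4 of 4 mice and the groups did not overlap, a separation given without its share over all rows. NT3 mice 1 to 4 had 10.5, 27.3, 28.7 and 21.7 CPM in the non-loaded limb and 18.8, 17.6, 15.3 and 32.5 CPM in the loaded limb, higher in 2 of 4. The fitted difference was 0.46 in Ctrl (SE 0.3, 95% interval -0.13 to 1.05, edgeR adjusted p = 0.507) and -0.03 in NT3 (SE 0.33, interval -0.68 to 0.61, edgeR adjusted p = 0.995). The Ctrl interval reaches past a log2 change of 1, so a moderate rise was not detectable at this depth. The difference between the responses was -0.5 (SE 0.45, interval -1.37 to 0.38, edgeR adjusted p = 0.925).

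Loxl1 gave the fewest fragments of the 4 rows, with a coefficient of variation of 12.9% in non-loaded Ctrl limbs and 47.9% to 80.7% in the other groups. Ctrl mice 1 to 4 had 14.8, 12.4, 12.5 and 10.8 CPM in the non-loaded limb and 6.91, 5.73, 12.7 and 16.4 CPM in the loaded limb. In NT3 mice 1 to 4 the values were 7.37, 1.09, 3.74 and 12.4 CPM without loading and 7.29, 9.45, 3.82 and 24.4 CPM with it. The groups overlapped throughout, and NT3 mouse 4 was the highest NT3 mouse in both limbs. The loading difference was -0.33 in Ctrl (SE 0.48, interval -1.28 to 0.62, edgeR adjusted p = 0.826) and 0.84 in NT3 (SE 0.55, interval -0.25 to 1.93, edgeR adjusted p = 0.815). The difference between the responses was 1.17 (SE 0.73, interval -0.27 to 2.61, edgeR adjusted p = 0.857).

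As background to these values, the mouse-blocked fits called 292 of 7192 rows (4.06%) between the limbs of Ctrl mice, 220 of them (3.06%) higher in the loaded limb. In NT3 mice they called 30 rows (0.417%), 24 of them (0.334%) higher, and 10 rows (0.139%) for the difference between the responses. Without the replicate block for mouse the counts were 171, 5 and 0, the last with edgeR, which left 335 rows at an unadjusted p under 0.05, and DESeq2 with the block called 10. Neither Lox nor Loxl1 was among the called rows, and nothing is read from these shares for Nt5c3b and Gm38391, whose choice used the loading contrast.

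Between genotypes, the row opposite Fkbp10 and the row opposite Plod2 were lower in NT3 bone after loading, while without loading the genotypes overlapped. In loaded limbs Nt5c3b averaged 485 ± 106 CPM in NT3 against 840 ± 115 in Ctrl (SD, n = 4), a difference of -0.79 (SE 0.15, 1.73-fold lower, edgeR adjusted p = 9.7e-04). Gm38391 averaged 406 ± 86.4 CPM against 716 ± 145, a difference of -0.82 (SE 0.15, 1.76-fold lower, edgeR adjusted p = 0.00111). In that comparison 160 of 6080 rows (2.63%) were called and 80 (1.32%) were lower in NT3. These loaded libraries also entered the picking of both rows, so the comparison is not independent of the choice. Its adjusted p-values for both rows are therefore no separate evidence, and the differences are descriptions. With the marrow marker rows as a covariate the differences were -0.79 and -0.9 with edgeR adjusted p = 0.999 for each, and 1 row was called in all. Mean log2 CPM of the marrow marker rows was 5.94 to 6.08 in loaded Ctrl and 6.21 to 6.47 in loaded NT3 limbs. The genotypes do not overlap in it, so that fit cannot separate marrow from genotype.

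Without loading, Nt5c3b averaged 296 ± 52.5 CPM in NT3 and 270 ± 7.06 in Ctrl, a difference of 0.12 (SE 0.15, interval -0.17 to 0.41, edgeR adjusted p = 0.932). Gm38391 averaged 311 ± 115 and 321 ± 50.4 CPM, a difference of -0.06 (SE 0.22, interval -0.48 to 0.37, edgeR adjusted p = 0.982). The non-loaded libraries also entered the picking of both rows, so these differences are descriptions too and their adjusted p-values no separate evidence. The spread among non-loaded NT3 limbs exceeded that among Ctrl limbs for both rows, with a coefficient of variation of 17.8% against 2.61% for Nt5c3b and 37.2% against 15.7% for Gm38391. In non-loaded limbs 36 of 6220 rows (0.579%) were called.

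Lox averaged 21 ± 7.8 CPM in loaded NT3 and 33.1 ± 4.14 in loaded Ctrl limbs. The difference of -0.66 (SE 0.31, interval -1.27 to -0.05) did not pass the test over all rows (edgeR adjusted p = 0.347), and the groups overlapped through NT3 mouse 4. Without loading the Lox difference was -0.15 (SE 0.33, edgeR adjusted p = 0.952). Loxl1 differed by -1.01 without loading (SE 0.51, with -1.59 without NT3 mouse 4 and -0.64 without NT3 mouse 2), where 4 Ctrl limbs and 1 NT3 limb held over 10 CPM. There the row passed the filter on low counts through the Ctrl limbs, so this difference is a description. In loaded limbs the Loxl1 counts were too low to be tested.

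When the limbs of each mouse were summed, all 4 rows had a lower mean in NT3 and 1, Nt5c3b, was called. The median difference over all 8626 rows tested was -0.006. The share of all rows with a lower mean is not given, so nothing is read from the count of 4. The sum does not use the loaded minus non-loaded contrast, but it is not independent of the choice of rows, since 3019 of the Ctrl fragments of Nt5c3b came from loaded and 1010 from non-loaded limbs. The summed differences of Nt5c3b and Gm38391 are therefore descriptions too. As counts per 1000000 fragments of the summed limbs, without TMM scaling, Nt5c3b reached 551, 483, 499 and 617 in Ctrl mice 1 to 4 and 474, 439, 336 and 321 in NT3 mice 1 to 4, so that on this scale each NT3 mouse lay below each Ctrl mouse. The difference was -0.51 (SE 0.13, edgeR adjusted p = 0.0374) in a comparison that called 171 of 8626 rows (1.98%). The call was lost without Ctrl mouse 1, 3 or 4 or NT3 mouse 3 or 4, each left out in turn (-0.51 to -0.4, edgeR adjusted p 0.0717 to 0.233), with the marrow covariate (-0.44, edgeR adjusted p = 0.288) and with a term for animal number (-0.45, edgeR adjusted p = 0.155). Gm38391 reached 441, 415, 565 and 590 in Ctrl and 395, 482, 313 and 260 in NT3, with NT3 mouse 2 inside the Ctrl range. Its difference of -0.52 (SE 0.18) had an edgeR adjusted p of 0.218, and without NT3 mouse 2 it was -0.7 with an edgeR adjusted p of 0.0131. Lox and Loxl1 differed by -0.42 (SE 0.23, edgeR adjusted p = 0.512) and -0.44 (SE 0.38, edgeR adjusted p = 0.77). Lox was -0.26 without NT3 mouse 1, and Loxl1 was -1.06 without NT3 mouse 4, -0.25 without NT3 mouse 2 and -0.21 without NT3 mouse 3.

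**Figure D3:**
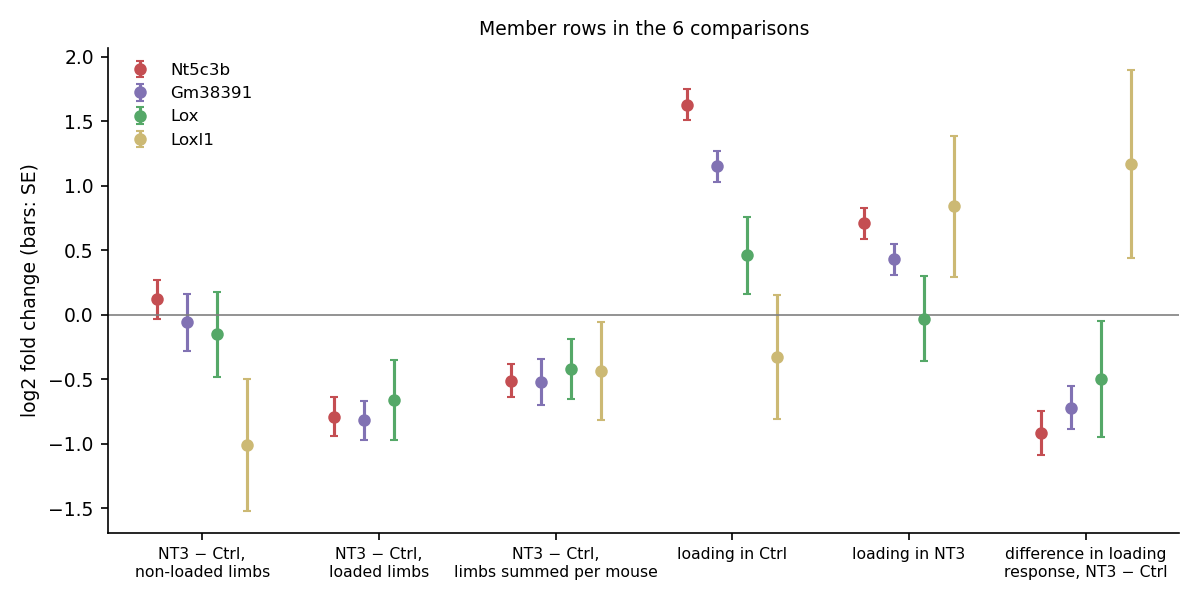
Log2 fold change (vertical axis; bars are the SE of the fit) of the 4 rows in the 6 comparisons, with Loxl1 absent from the loaded genotype comparison because it did not pass the filter there. In the loading comparisons Nt5c3b and Gm38391 lie above 0 by several SE, in the loaded genotype comparison they lie near -0.8, and the bars of Lox and Loxl1 are wider.

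Rows named for or opposite markers of marrow and of bone cells differed between some of the groups compared. The 17 marrow marker rows that passed the filter were 8 named for a marker and 9 opposite one. Their mean log2 CPM was 5.94 to 6.08 in loaded Ctrl limbs and 6.21 to 6.47 in loaded NT3 limbs, which do not overlap. In the non-loaded limbs of these genotypes it was 6.11 to 6.65 and 6.3 to 6.58. Summed over the 24 marrow markers by row name, the level was 365 to 414, 396 to 446, 404 to 438 and 387 to 486 CPM in Ctrl non-loaded, Ctrl loaded, NT3 non-loaded and NT3 loaded limbs. The 10 rows opposite marrow markers, with Mir3620 at 0, summed to 5303 to 11454, 4382 to 6525, 6310 to 8873 and 5387 to 6687 CPM in that order. Of 9 tested, edgeR called 5 lower with loading in Ctrl and 3 higher in NT3 than in Ctrl after loading. Of marrow rows by name, edgeR called 1 of 8 tested with loading in Ctrl, and that row was higher. Between genotypes after loading it called 0 of 6 by name. Over all rows tested, 4.06% were called with loading in Ctrl and 2.63% between genotypes after loading. The 13 osteoblast and osteocyte marker rows by name summed to 461 to 631, 624 to 739, 434 to 718 and 480 to 645 CPM in the same order, with none at 0, and the 3 rows opposite such markers to 709 to 1297, 3671 to 5597, 885 to 1761 and 2094 to 4051 CPM. The 5 rows opposite skeletal muscle markers ranged from 817 to 10136 CPM over the 16 libraries. In loaded limbs the marrow covariate cannot be separated from genotype, since the marrow means of the genotypes do not overlap. The part of these cells in the differences was not tested.

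Other genes of collagen modification were counted both by the row that carries their name and by the row on the strand opposite them. Prolyl hydroxylation, lysyl hydroxylation and glycosylation, folding and export, propeptide removal, cross-linking, fibril assembly and collagen cleavage were covered by 7 lists. Beside the 4 rows described, 17 rows named for their genes were tested between Ctrl limbs. Of these 1 was called, P3h1, and their median was 0.07, against -0.03 over all rows. Of 10 tested rows opposite a gene of these lists, 5 rose by edgeR and 3 by DESeq2, with a median of 0.39. Over all rows tested between Ctrl limbs, edgeR called 3.06% higher with loading. In NT3 mice 0 of either kind were called by edgeR or DESeq2, with medians of 0.01 and 0.11, and 1 row by name and 2 opposite had an unadjusted edgeR p under 0.05. Between genotypes in loaded limbs, 1 of 10 rows opposite a list gene was called lower in NT3, against 1.32% of all rows. By name, 0 of 14 rows were called by edgeR or DESeq2, 3 of them at an unadjusted edgeR p under 0.05.

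The row called by name was P3h1, prolyl 3-hydroxylase 1 of the collagen 3-hydroxylation complex, with 0 to 7 fragments in non-loaded and 14 to 24 in loaded Ctrl limbs. It passed the filter on low counts through the loaded Ctrl limbs, which favours a difference, so its difference of 2.74 (SE 0.6) is a description. The rows opposite list genes that rose by edgeR were Gm17529 (opposite Sec23a, a coat protein of export vesicles), Snx22 (opposite Ppib, cyclophilin B of that same complex), Unc13a (opposite Colgalt1, a collagen galactosyltransferase), Apol7d (opposite Fn1, fibronectin) and Gm9913 (opposite Fbn1, fibrillin 1). Which of them DESeq2 called is not given here. Gm17529 stood at 147 to 167 CPM in non-loaded and 288 to 342 CPM in loaded Ctrl limbs (1.0, SE 0.14, edgeR adjusted p = 2.0e-06), and was lower in loaded NT3 than in loaded Ctrl limbs (-0.62, SE 0.16, edgeR adjusted p = 0.0242). Snx22 rose by 0.55 (SE 0.11, edgeR adjusted p = 9.0e-04), while the Ppib row differed by -0.36 (SE 0.19, edgeR adjusted p = 0.407). Apol7d rose by 0.87 (SE 0.12), Gm9913 by 0.81 (SE 0.23) and Unc13a by 0.44 (SE 0.12), with edgeR adjusted p of 2.8e-06, 0.0379 and 0.0199.

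Neither of the other lysyl oxidase rows below passed a test. Loxl3 averaged 365 ± 33.7, 332 ± 27.6, 387 ± 17.4 and 389 ± 18.0 CPM in Ctrl non-loaded, Ctrl loaded, NT3 non-loaded and NT3 loaded limbs, and its Ctrl loading difference was -0.14 (SE 0.12, edgeR adjusted p = 0.645). Loxl4 averaged 51.3 ± 10.8, 50.4 ± 4.75, 50.8 ± 10.1 and 49.2 ± 11 CPM, with a Ctrl loading difference of -0.01 (SE 0.22, edgeR adjusted p = 0.991). Loxl3 shares exon bases with Htra2 on the other strand, a row that averaged 433 ± 68.0 and 462 ± 28.3 CPM in the Ctrl limbs. Of the rows named for or opposite the cross-linking list, Lox and Loxl1 included, 0 passed edgeR or DESeq2 in any of the 6 comparisons, and 1, Lox between genotypes in loaded limbs, had an unadjusted edgeR p under 0.05.

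The rows of the fibrillar collagens, the substrates of these enzymes, rose with loading in Ctrl. All 7 passed the test there, with a median of 1.79, and 2 of 7 passed the test in NT3, with a median of 0.85, against 1 by DESeq2. Col1a1, the major chain of bone collagen, rose by 2.06 (SE 0.17, edgeR adjusted p = 6.4e-12) in Ctrl and by 1.19 (SE 0.16, edgeR adjusted p = 1.5e-05) in NT3, and Col11a2 rose by 1.54 (SE 0.24, edgeR adjusted p = 1.1e-05) and 1.68 (SE 0.26, edgeR adjusted p = 6.0e-05). Col1a2, the partner chain of Col1a1, rose by 1.79 in Ctrl (SE 0.18, edgeR adjusted p = 5.1e-10), stood at 0.65 in NT3 (SE 0.18, edgeR adjusted p = 0.106) and had a smaller response in NT3 by the test of the difference (-1.13, SE 0.25, edgeR adjusted p = 0.047). The 2 rows opposite Col5a1, 2810430I11Rik and Gm13372, also rose in Ctrl, and their responses in NT3 minus those in Ctrl were -1.1 (SE 0.18, edgeR adjusted p = 6.2e-04) and -1.06 (SE 0.19, edgeR adjusted p = 0.00218). DESeq2 called 0 rows by name and 2 opposite for that difference. In loaded limbs DESeq2 called 2 fibrillar collagen rows between genotypes and edgeR called 1, Col11a1, lower in NT3 by a log2 difference of -1.34 (SE 0.28, edgeR adjusted p = 0.0034). The Ctrl loading difference of Nt5c3b, 1.63, lay within the range of the 7 collagen rows, 1.37 to 2.06, and that of Gm38391, 1.15, lay below it.

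**Figure D4:**
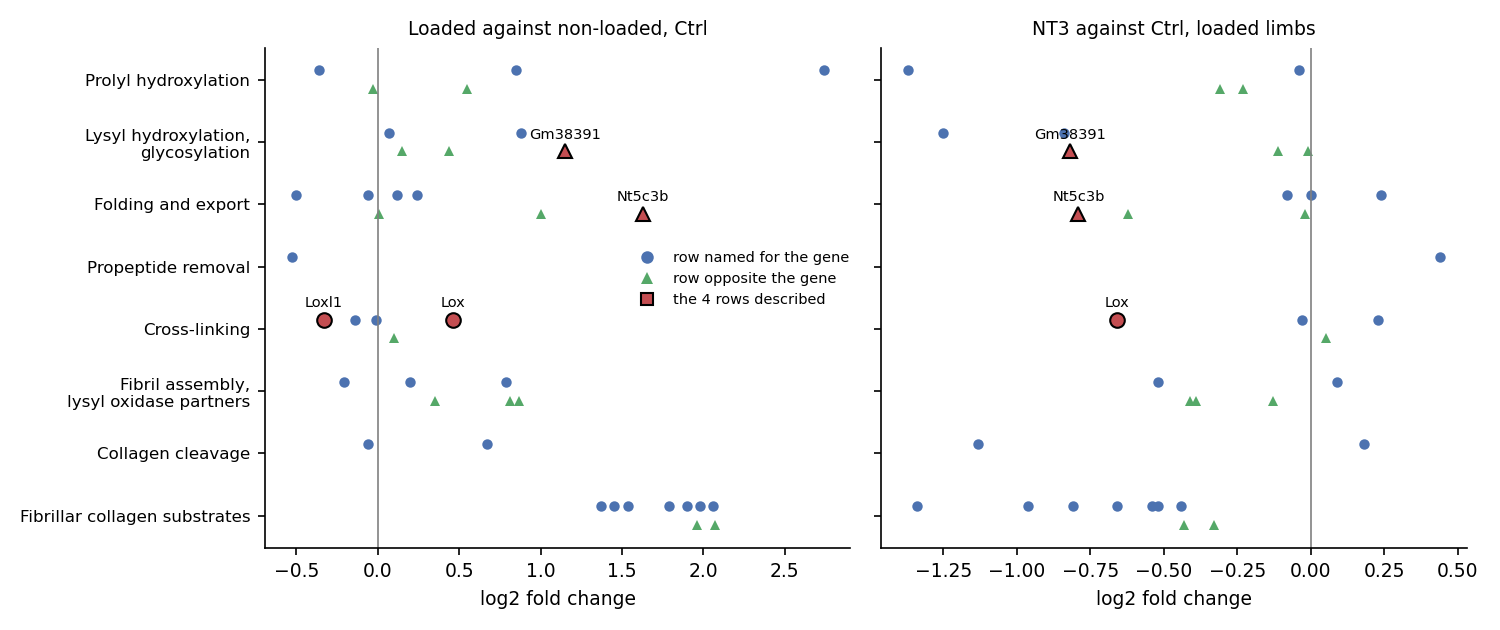
Log2 fold change (horizontal axes) of every tested row of 8 role lists between the limbs of Ctrl mice (left) and between genotypes in loaded limbs (right), with circles for rows named for a list gene, triangles for rows opposite one and the 4 rows described in red. The fibrillar collagen rows all lie above 1 on the left, Nt5c3b and Gm38391 lie at 1.63 and 1.15, and the lysyl oxidase rows gather nearer to 0.

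Over the 16 libraries, which share the 4 groups and the limb pairs, the log2 CPM of Nt5c3b and Gm38391 had a Pearson r of 0.905. Both were picked by their response to loading in these libraries, so a high r between them, and a lower one with Lox or Loxl1, is no finding. Lox had an r of 0.334 with Nt5c3b and 0.351 with Gm38391, and Loxl1 had 0.045 and -0.048. Among 4114 rows averaging at least 20 fragments, the rows most like Nt5c3b were Rnf123 (r = 0.969), Tmem150b (0.963) and Abi3 (0.961). Rows like Gm38391 included Stk25 (r = 0.946) and Mmp8 (0.926), neutrophil collagenase. Abi3 lies opposite Gngt2, Zfp652 and Phospho1, a phosphatase of bone mineralisation. Rnf123 lies opposite Gm20529, Gmppb and Mst1, Tmem150b opposite Brsk1, and Stk25 opposite Farp2 and Gm28536. The rows most like Lox reached r = 0.726 (Usp50), 0.696 (Cdk5r1) and 0.684 (Dnajc3), and those most like Loxl1 0.801 (Msmp), 0.786 (Muc6) and 0.719 (St6galnac2).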

How the data were processed

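RNA-seq of cortical bone was analysed in 16 libraries from 8 mice. The deposited values were counts of fragments per gene, made by the authors. Per the submitters' processing notes, STAR 2.4.2a, featureCounts 1.4.6 and DESeq2 were used, with mm10. Per the labels' protocols, total RNA was depleted of ribosomal RNA, primed at random and read single-end for 75 bases. The annotation release and the strand setting are not given in the sources used here. Each library held 758394 to 1064391 counted fragments, which limits rows below about 20 fragments.

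Rows were matched to GENCODE M21 (45250 by symbol and 606 by an older symbol), and called opposite a gene at 20 or more shared exon bases. After filterByExpr (minimum count 10) and TMM scaling, counts were tested by the robust quasi-likelihood F test of edgeR 4.0.16 in R 4.3.3. The Benjamini-Hochberg adjustment ran over all rows tested, a row was called below 0.05, and intervals are 1.96 SE to each side. Genotypes were compared over 8 libraries of separate mice or over limbs summed per mouse. Loading was compared with mouse as a replicate block, since the design pairs the limbs, and the limbs' deviations from the group means correlated at 0.045 to 0.178 within mice. All comparisons kept every library. The alternatives were RLE size factors, DESeq2 1.42.0, no filter, a library size without 188 ribosomal and repeat rows, covariates for marrow marker rows and for Rabep2 (opposite the muscle gene Atp2a1), no replicate block, a term for animal number, and each mouse left out. The marrow covariate averaged marrow marker rows of both kinds, named for a marker and opposite one. The tests were tested on simulated data.

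The 4 rows and the gene lists were chosen with earlier results of these data known. Rows named were the 4, those named for or opposite Fkbp10 and Plod2, up to 4 rows of each role list by smallest adjusted p between Ctrl limbs, by name and opposite, and the 3 rows most correlated with each of the 4. Rows of the role lists that passed no test are mostly given as counts, and 1 of the correlated rows is not reported here. The labels call the 4 mice of a genotype biological replicates.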

Additional observations from a re-analysis of the deposited data

How the results depend on the processing

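The direction of Nt5c3b and Gm38391 was the same in every alternative run for all 6 comparisons, except Gm38391 between genotypes in non-loaded limbs (-0.06), which ranged from -0.29 to 0.12 when each mouse was left out. Lox in that comparison (-0.15) ranged from -0.29 to 0.08, and its loading difference in NT3 (-0.03) from -0.29 to 0.24 and was 0.04 with Rabep2 as a covariate. The Loxl1 loading difference in Ctrl (-0.33) was 0.34 with the marrow covariate. That covariate left 1, 47 and 41 called rows in the loaded genotype, limbs-summed and Ctrl loading comparisons, of 160, 171 and 292. With it Nt5c3b was -0.79 and Gm38391 -0.9 in the loaded genotype comparison, and Nt5c3b was -0.44 in summed limbs, all without a call. With it the Gm38391 loading difference in Ctrl was 0.82 and the difference in response -0.46. The marrow means did not overlap between genotypes in loaded limbs, nor between the limbs of Ctrl mice. In those comparisons the covariate cannot be separated from genotype or loading. A 2-level term for animal number left 65 and 86 called rows in the loaded and limbs-summed comparisons, and Nt5c3b at -0.45 in the latter (edgeR adjusted p = 0.155). With no filter the non-loaded genotype comparison called 71 rows and the difference in response 17, and Gm38391 in summed limbs was called (-0.52, edgeR adjusted p = 0.0169). DESeq2 called 169 rows for loading in Ctrl and 19 in NT3, and the Rabep2 covariate left 19 in NT3. Without the replicate block, loading called 171 rows in Ctrl, 5 in NT3 and 0 for the difference in response by edgeR (335 at an unadjusted p under 0.05). No paired analysis was possible between genotypes because separate mice carry them. Leaving out each mouse gave 12 to 77 called rows between genotypes without loading (of 36; 77 without Ctrl 1, 12 without Ctrl 2, 20 without Ctrl 3, 14 without NT3 3), 87 to 210 in summed limbs (of 171; 90 without Ctrl 2, 87 without NT3 3), 163 to 324 for loading in Ctrl (163 without Ctrl 2, 184 without Ctrl 3) and 17 to 44 in NT3 (of 30; 17 without NT3 1). In summed limbs Nt5c3b ranged from -0.61 to -0.4 and Gm38391 from -0.7 to -0.38 when each mouse was left out. The cause of these shifts was not tested. Counts of 10 to 34 fragments for Lox and 1 to 18 for Loxl1 limit what could be detected.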
